A study of Mus musculus with 8 samples.

Results

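Fc gamma receptors let cells of the innate immune system take up material coated with IgG. The genes described here are 9 of the 21938 protein-coding genes of the mouse annotation, and they encode these receptors and the signalling proteins that drive engulfment behind them. They are Fcgr1, Fcgr2b, Fcgr3, Fcgr4, Fcer1g, Syk and Vav1, used mainly by blood-derived cells and here called haematopoietic, and Elmo1 and Dock1, which many cell types express. Each of the 9 had peaks in its window. The list was drawn up with results of the same tumors known, from a pathway that stood out among genes holding regions acetylated in test tumors only. The members were thus selected on the same peak positions that are described here, so every value is a description and none was tested. With 2 tumors in each group, no two-sided exact permutation test could give a p below 1 in 3.

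The samples were breast tumors of Balb/c mice that carried the PyMT oncogene and lacked Rag1, and therefore had no T or B cells of their own. When they were 4 weeks old, all mice were given CD4+ T cells, and tumors were collected at terminal size. The 2 control tumors came from PyMT;Rag1KO mice without a further transgene, and the 2 test tumors from K14-TSLPtg;PyMT;Rag1KO mice, in which the keratin 14 promoter drives the cytokine TSLP in epithelium. The sample titles call the controls tumor and the tests cyst, the tumors came from separate mice, and a number only names a tumor. What was measured was where histone H3 carries an acetyl group on lysine 27 (H3K27ac), as it does at promoters and enhancers in use, by ChIP-seq of whole tumor chromatin.

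In this pathway the activating receptors Fcgr1, Fcgr3 and Fcgr4 bind the constant part of IgG and signal through the shared gamma chain Fcer1g, whereas Fcgr2b carries an inhibitory motif and restrains them. Phosphorylated Fcer1g recruits the tyrosine kinase Syk, which activates Vav1, an exchange factor that loads Rac with GTP so that actin is built around the target. Elmo1 and Dock1 form another exchange factor for Rac, best known downstream of receptors for dying cells. In mammary tumors, macrophages are the main cells that carry this machinery.

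The 4 peak lists held between 59762 and 69861 intervals covering between 64.3 and 73.1 Mb, and test 2 had the fewest and the smallest covered length. They give positions without height, and read depth is unknown. For each gene, coverage was the percent of bases of its window, the gene body plus 50 kb on either side, that lay in peaks. Peaks of the 4 tumors that touched or overlapped were joined into 91238 union regions. A region with a peak in both tumors of 1 group and neither of the other was called control-only or test-only. Among all union regions, 3.41% were control-only and 1.47% test-only. A whole tumor mixes cell types, so fewer cells that use a gene and less acetylation in each of them cannot be told apart.

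Promoter sequences, from RefSeq on GRCm38.p6, are shown for 4 members that carry the motifs described. Each is the 250 bases before the RefSeq start, read 5′ to 3′ on the gene's strand. Capitals mark matches on either strand to the interferon-type GAS motif TTCNNNGAA in Fcgr1, to the PU.1 motif GAGGAAGT in Fcgr4 and Vav1, and to the GC box GGGCGG in Vav1 and Elmo1. The capitals near the far end of the Elmo1 sequence mark TATAAA on the opposite strand.
Fcgr1 promoter, chr3:96293970-96294219, minus strand: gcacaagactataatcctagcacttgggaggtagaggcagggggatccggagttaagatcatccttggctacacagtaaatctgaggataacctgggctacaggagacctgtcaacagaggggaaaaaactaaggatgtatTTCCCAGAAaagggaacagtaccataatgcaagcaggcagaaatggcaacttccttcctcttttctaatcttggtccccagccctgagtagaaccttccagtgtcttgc
Fcgr4 promoter, chr1:171018676-171018925, plus strand: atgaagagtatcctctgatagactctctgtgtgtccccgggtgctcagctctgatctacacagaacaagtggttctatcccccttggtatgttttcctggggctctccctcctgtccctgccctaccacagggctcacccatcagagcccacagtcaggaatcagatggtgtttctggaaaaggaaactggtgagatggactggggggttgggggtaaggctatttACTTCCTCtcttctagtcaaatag
Vav1 promoter, chr17:57278850-57279099, plus strand: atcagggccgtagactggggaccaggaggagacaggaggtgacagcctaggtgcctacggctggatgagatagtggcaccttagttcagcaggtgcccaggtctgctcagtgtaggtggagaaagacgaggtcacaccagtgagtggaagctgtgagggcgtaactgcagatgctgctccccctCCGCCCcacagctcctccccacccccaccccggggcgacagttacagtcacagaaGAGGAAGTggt
Elmo1 promoter, chr13:20090257-20090506, plus strand: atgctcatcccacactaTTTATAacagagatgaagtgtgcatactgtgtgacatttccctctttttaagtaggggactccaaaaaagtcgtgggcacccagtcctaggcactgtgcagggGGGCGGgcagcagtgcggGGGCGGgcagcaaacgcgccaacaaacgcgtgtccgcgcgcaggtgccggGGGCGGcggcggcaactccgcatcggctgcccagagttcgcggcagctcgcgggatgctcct
The Fcgr1 and Fcgr4 promoters were poor in CpG, with observed over expected ratios of 0.0631 and 0.103 over 300 bases, against a median of 0.384 over all 32851 promoters in the table. Vav1 had 0.394. The ratio was 0.794 at the first Elmo1 start, 0.911 at Dock1 and 0.8 at the first Syk start, so high CpG content was not particular to the broadly expressed members. Further RefSeq starts had lower ratios, 0.38 in Elmo1 and 0.123 in Syk. The PU.1 motif, bound by a factor that myeloid cells require, was in 2 of the 9 haematopoietic promoter entries and in 3.2% of all promoters. A further match in the Elmo1 entry reached past the bases printed. GAS matched 8.3% of all promoters, the GC box 35.7% and TATAAA 13.6%. The Dock1 promoter, like that of Elmo1, held 3 GC boxes.

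Group-only regions in the windows of members are shown by the 300 bases at their centre (GRCm38.p6, plus strand) for 1 region that only control tumors held and 3 that only test tumors held. In the first, capitals mark a GATA motif (AGATAAG). In the Elmo1 region 52.3 kb into the gene they mark GAS.
Fcgr4 upstream control-only region, chr1:171017249-171017548, plus strand: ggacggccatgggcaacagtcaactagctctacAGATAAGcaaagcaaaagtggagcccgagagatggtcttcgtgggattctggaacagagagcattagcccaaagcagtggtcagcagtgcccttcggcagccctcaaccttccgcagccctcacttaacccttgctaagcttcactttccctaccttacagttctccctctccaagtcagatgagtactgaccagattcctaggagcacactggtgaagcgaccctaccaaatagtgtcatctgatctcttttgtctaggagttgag
Elmo1 intron 1 test-only region at 30.1 kb, chr13:20120544-20120843, plus strand: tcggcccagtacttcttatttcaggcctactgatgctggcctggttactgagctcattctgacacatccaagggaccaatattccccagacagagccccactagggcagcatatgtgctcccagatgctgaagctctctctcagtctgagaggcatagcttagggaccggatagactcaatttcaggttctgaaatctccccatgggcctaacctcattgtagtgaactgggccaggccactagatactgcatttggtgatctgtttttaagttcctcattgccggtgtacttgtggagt
Elmo1 intron 1 test-only region at 52.3 kb, chr13:20142710-20143009, plus strand: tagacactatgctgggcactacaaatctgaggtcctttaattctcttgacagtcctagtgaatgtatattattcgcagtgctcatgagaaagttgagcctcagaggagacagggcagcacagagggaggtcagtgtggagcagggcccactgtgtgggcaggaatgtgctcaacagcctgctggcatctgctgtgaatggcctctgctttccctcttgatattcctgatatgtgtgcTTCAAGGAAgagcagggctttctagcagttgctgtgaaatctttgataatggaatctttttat
Elmo1 intron 1 test-only region at 55.7 kb, chr13:20146098-20146397, plus strand: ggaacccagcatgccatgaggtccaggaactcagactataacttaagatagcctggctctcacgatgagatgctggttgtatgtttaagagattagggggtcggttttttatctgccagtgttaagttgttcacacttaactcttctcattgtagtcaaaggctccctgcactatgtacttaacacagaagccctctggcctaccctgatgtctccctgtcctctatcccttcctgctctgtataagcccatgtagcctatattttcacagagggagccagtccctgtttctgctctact
Centres with AGATAAG made up 3.22% of all union regions, and those with GAS 9.98%. The other Elmo1 regions shown held none of the 9 motifs searched, which says only that these letters are not in these windows.

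Over the 7 haematopoietic members, acetylated coverage was lower in the test tumors for 6 by the group mean (48.6% of all genes with a peak were lower), with a median difference, test minus control, of -2.55 percentage points. Mean coverage of these windows was 11.2% and 10.7% in controls 1 and 2, and 9.89% and 7.84% in tests 1 and 2. Test 2 was therefore lowest, and without it the median difference was -0.65 points. The median difference over the 18693 genes with a peak in their window was 0.0192 points. Test 2 had the lowest coverage for 5 of the 7 members and for 43.3% of all these genes.

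Of the 9 members, 4 were covered more in both control tumors than in either test tumor (Fcgr2b, Fcgr4, Fcer1g and Syk). Among all genes with a peak, 13% had this order. Fcgr1 was the 1 member covered more in both test tumors, an order that 17.3% of genes had. In the other 4 members the groups overlapped. The windows of Fcgr2b, Fcgr3 and Fcgr4 overlap one another, so these 3 genes share peaks and the 9 windows form 7 separate loci.

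**Figure D1:**
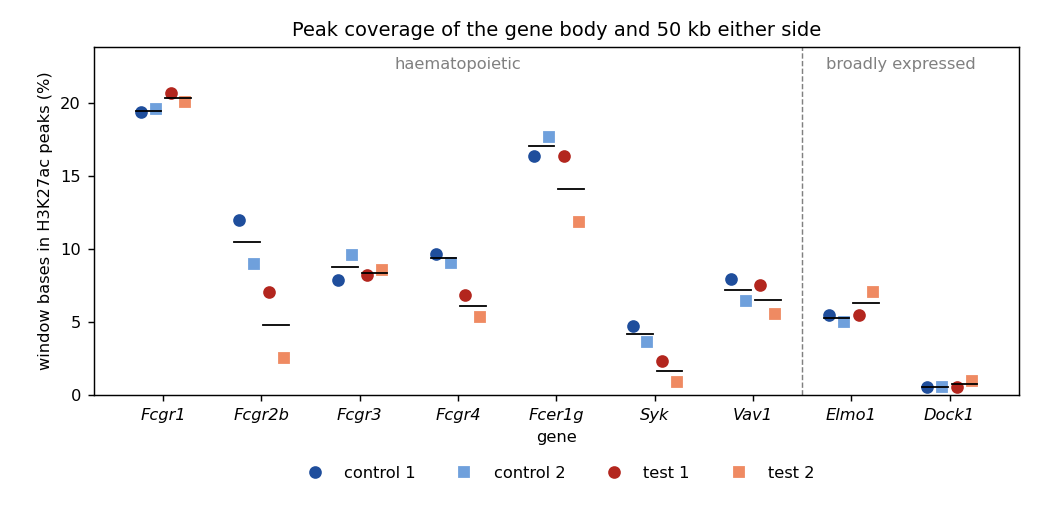
Percent of bases in H3K27ac peaks in the window of each gene (gene body plus 50 kb either side, vertical axis) in the 4 tumors; points are tumors, short black lines are group means, and the dashed line separates the classes. Fcgr2b, Fcgr4, Fcer1g and Syk lie higher in both control tumors, and test 2 is lowest in 5 of the 7 haematopoietic members and highest in both broadly expressed ones.

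Fcgr1 encodes the high-affinity IgG receptor (chr3:96282909-96293969, minus strand). Its window was covered for 19.4% and 19.6% in controls 1 and 2, and 20.7% and 20.1% in tests 1 and 2. Both test tumors lay above both controls, by 0.922 points on average (SD over the 4 test and control pairings 0.411). Much of this coverage belonged to the neighbouring replication-dependent histone genes of the Hist2 cluster, since peaks at starts of other protein-coding genes made up between 59% and 61.3% of the covered bases. Without test 1 the difference was 0.579 points, and with peaks of at least 1 kb it was 0.323 points (SD over pairings 1.64). With 10 kb flanks in place of 50 kb it was -0.9 points, the opposite direction. Within 1 kb of its own start, Fcgr1 held 1 peak in each tumor, of 2727 bp in control 1, 2046 bp in control 2, 2390 bp in test 1 and 2101 bp in test 2. These widths overlapped between the groups, and the 300-base promoter lay wholly in peaks in all 4 tumors. The 1 test-only region of the window (chr3:96333453-96334163) lay 39.8 kb upstream of the start and was covered for 309 bp in test 1 and 711 bp in test 2.

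Fcgr2b, the inhibitory receptor (chr1:170958617-170976547, minus strand), showed the largest difference in coverage. Its window was covered for 12% and 8.97% in controls 1 and 2, and 7.07% and 2.53% in tests 1 and 2, and the groups did not overlap. The mean was 10.5% ± 2.12 (SD, n = 2) in control and 4.8% ± 3.21 (SD, n = 2) in test tumors, a difference of -5.68 points. Without test 2 it was -3.41 points. With peaks of at least 1 kb it was -4.1 points, smaller than the -4.83 points of Fcgr4 under that setting. The number of peaks did not follow the groups. Control 1 had 27, control 2 had 20, test 1 had 25 and test 2 had 8. Peaks within 1 kb of the start summed to 3063 bp in control 1, 1271 bp in control 2, 646 bp in test 1 and 619 bp in test 2, so those of the controls were wider. The RefSeq promoter was covered for 300 of 300 bases in control 1, 15 in control 2 and 0 in both test tumors. Of 33 union regions, 2 were control-only and none (0) test-only. These were the region 1.52 kb upstream of Fcgr4 and a region of 268 bp 27.1 kb downstream of the Fcgr2b start (chr1:170949353-170949620).

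Fcgr4, an activating receptor of monocytes, macrophages and neutrophils (chr1:171018920-171029761, plus strand), lies between Fcgr2b and Fcgr3. Its window was covered for 9.7% and 9.04% in controls 1 and 2, and 6.9% and 5.36% in tests 1 and 2. The groups did not overlap and differed by -3.24 points (SD over pairings 0.967). Peaks near its start summed to 714 bp in control 1 and 2200 bp in control 2, against 223 bp in test 1 and 177 bp in test 2. A narrow peak thus remained there in both test tumors. Of the 300 bases of the promoter entry, 12 were covered in control 2, past the letters printed above, and 0 in the other tumors. The control-only region printed above (chr1:171016816-171017982), centred 1.52 kb upstream of Fcgr4, held 198 bp of peak in control 1 and 1167 bp in control 2, and 0 bp in both test tumors.

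Fcgr3, the activating receptor shared by macrophages, neutrophils and natural killer cells (chr1:171051174-171064935, minus strand), overlapped between the groups over its window and separated at its RefSeq promoter. Window coverage was 7.9% and 9.61% in controls 1 and 2, and 8.23% and 8.55% in tests 1 and 2. The difference was -0.364 points. It was 0.49 points without control 2 and -1.22 points without control 1. With peaks of at least 1 kb it was -2.25 points, with 100 kb flanks -1.81 points and with 10 kb flanks 0.758 points. Both its size and its direction thus depend on how peaks and window are set. Its annotated gene begins upstream of the starts in the RefSeq promoter table, and at that first start only control 2 (158 bp) and test 2 (1117 bp) had peaks. At the start 5532 bp downstream, which is a RefSeq start, all 4 tumors had peaks, which summed to 1669 bp in control 1, 1456 bp in control 2, 1477 bp in test 1 and 544 bp in test 2. The sum was smallest in test 2. The 300 bases of each of the 2 overlapping RefSeq promoter entries there lay wholly in peaks in both controls (300 bases each) and outside them in both test tumors (0 bases each), whose peaks lay to the side. A test-only region 7.57 kb upstream of Fcgr3 (chr1:171072015-171072998) was covered for 241 bp in test 1 and 984 bp in test 2. It lies at the start of the small RNA gene Gm27552 and falls in the windows of both Fcgr3 and Fcgr4.

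**Figure D2:**
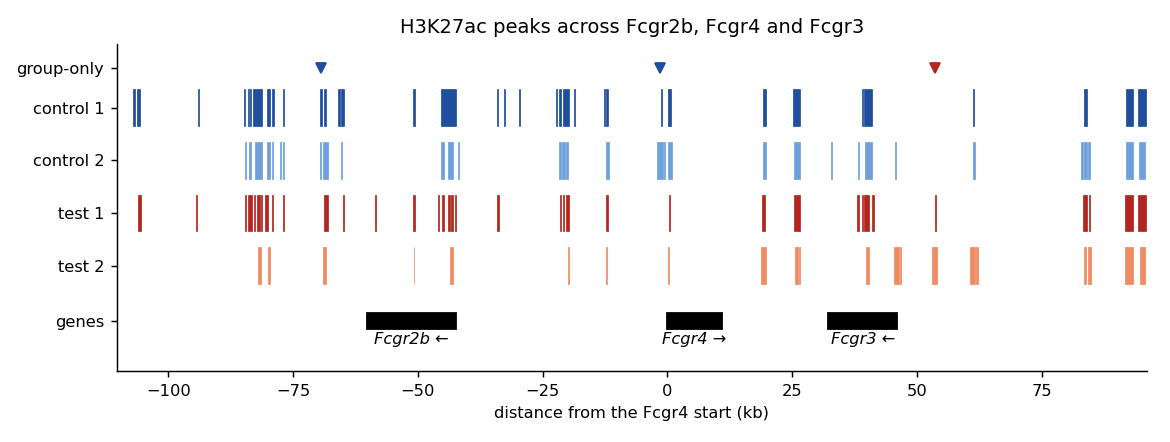
H3K27ac peaks (coloured blocks, 1 row for each tumor) along the joined windows of Fcgr2b, Fcgr4 and Fcgr3, as distance from the Fcgr4 start in kb; black bars are genes with the direction of transcription, blue triangles control-only and red triangles test-only regions. Test 2 has 8 peaks in the Fcgr2b window against 20 to 27 in the other tumors, and the single test-only region lies upstream of Fcgr3.

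Fcer1g, the gamma chain through which the activating receptors signal (chr1:171229572-171234365, minus strand), had a window covered for 16.4% and 17.7% in controls 1 and 2, and 16.4% and 11.9% in tests 1 and 2. Test 1 lay just below control 1, so the order of the groups rests on a small margin there, and the separation on test 2. The difference was -2.92 points. It was -0.65 points without test 2 and -5.19 points without test 1. Flanks of 100 kb gave -1.1 points and flanks of 10 kb -4.83 points. The peak within 1 kb of the start spanned 1960 bp in control 1, 2507 bp in control 2, 1927 bp in test 1 and 449 bp in test 2. Only the last stood apart. Peaks at the starts of other protein-coding genes made up between 52.5% and 64.3% of the covered bases. The window held 2 control-only regions, of which chr1:171184181-171184356 lay 50.1 kb downstream of the Fcer1g start.

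Syk, the kinase recruited by Fcer1g, which some epithelial cells also use (chr13:52583173-52648792, plus strand), had no start of another protein-coding gene in its window. Coverage was 4.71% and 3.67% in controls 1 and 2, and 2.35% and 0.926% in tests 1 and 2. The groups did not overlap, and the difference was -2.55 points (SD over pairings 1.02). It was -1.84 points without test 2, -1.66 points with 100 kb flanks and -1.04 points with peaks of at least 1 kb. At the first start, peaks spanned 2912 bp in control 1, 1591 bp in control 2, 2351 bp in test 1 and 495 bp in test 2. At a second annotated start 13680 bp downstream, they spanned 815, 600 and 166 bp in the first 3 tumors and were absent from test 2. The lower coverage was therefore shared among several sites. In intron 3, the region chr13:52615413-52616124 was covered for 712 bp in control 1, 578 bp in control 2, 395 bp in test 1 and 305 bp in test 2. Upstream, 11.2 kb before the start, chr13:52571279-52572582 was covered for 1304, 979, 369 and 401 bp in the same order. No region of the window was control-only or test-only, since each site that both controls held also had a peak in test 1.

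Vav1, the exchange factor of blood cells that acts on Rac (chr17:57279100-57328031, plus strand), was covered for 7.97% and 6.47% in controls 1 and 2, and 7.52% and 5.57% in tests 1 and 2. The groups overlapped, with a difference of -0.677 points that was 0.296 points without test 2 and 0.0698 points without control 1. It was -1.65 points without test 1, -1.42 points without control 2 or with 10 kb flanks, and -1.39 points with peaks of at least 1 kb. Its start was acetylated over 1518 bp in control 1, 342 bp in control 2 and 1006 bp in test 1, and held no peak in test 2. Nor did any peak of test 2 lie in the gene body, whose coverage was 3.83% and 1.83% in controls 1 and 2, and 1.85% and 0% in tests 1 and 2. A promoter peak in every tumor but test 2 was found for 1.68% of all protein-coding genes. Outside the gene, the region at the start of Gpr108 was covered for 4051, 3898, 4457 and 3827 bp in the 4 tumors, and test 2 there was close to the others. Another region outside the gene, chr17:57229587-57232371, was covered for 2656, 2498, 2785 and 1712 bp, and there test 2 stood lower.

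**Figure D3:**
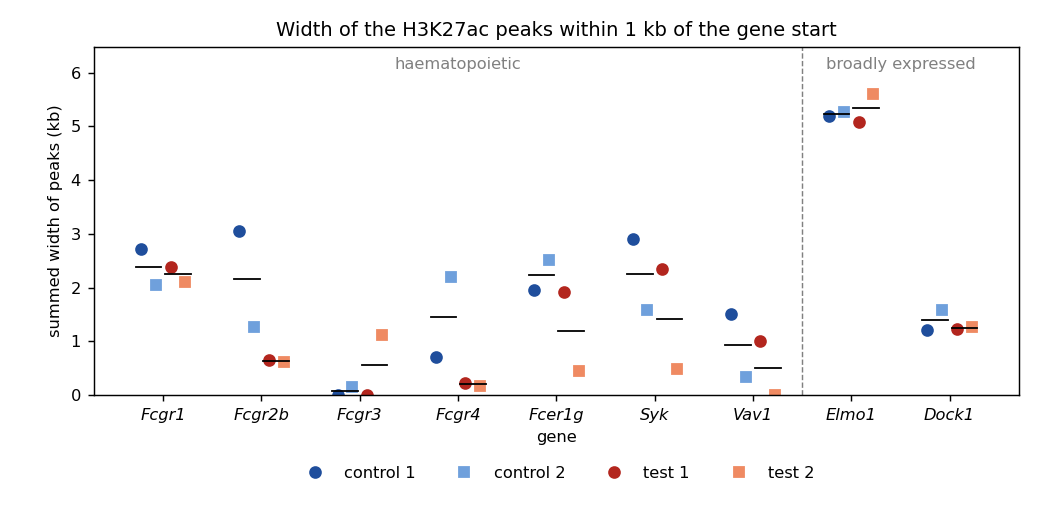
Summed width in kb (vertical axis) of the H3K27ac peaks within 1 kb of the first annotated start of each gene, in the 4 tumors; points are tumors, short black lines group means. The start of Elmo1 carried peaks of 5089 to 5610 bp in all tumors, while Syk, Fcer1g and Vav1 had their narrowest or no peak in test 2.

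Promoters within 1 kb of the first start held a peak in all 4 tumors for 7 of the 9 members, the exceptions being Fcgr3 and Vav1, and for 49.6% of all protein-coding genes. Among genes with such peaks in every tumor, test 2 had the smallest summed width in 31.3% and control 1 in 34%. Of the 7 members, test 2 had the smallest in 4 and each of the other tumors in 1. A peak in test 2 at least 3 times narrower than the narrowest of the other tumors was found in 1.16%, and Fcer1g and Syk were among them. Control 2 had the smallest width at Fcgr1, test 1 at Elmo1 and control 1 at Dock1.

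Elmo1, the scaffold that partners Dock proteins (chr13:20090596-20608353, plus strand), carried the most peaks of all members. Its window was covered for 5.52% and 5.02% in controls 1 and 2, and 5.48% and 7.1% in tests 1 and 2. Test 2 was highest and the other 3 tumors lay close together, so the groups overlapped. The difference was 1.02 points, with 0.206 points without test 2 and 1.83 points without test 1. At its first start, the peak spanned 5198 bp in control 1, 5267 bp in control 2, 5089 bp in test 1 and 5610 bp in test 2. An internal start 94611 bp into the gene carried a similarly wide domain of 5422, 4994, 5566 and 5161 bp in the same order. These broad domains were thus alike in the 4 tumors. The start between them, 20916 bp into the gene, was not, with 882 bp in control 1, 0 bp in control 2, 288 bp in test 1 and 1268 bp in test 2. At another start 160474 bp into the gene, test 2 had 2359 bp of peak against 249 to 368 bp in the others.

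Of 51 union regions in the Elmo1 window, 18 were present in all 4 tumors, 5 were test-only and none (0) control-only. The first 4 test-only regions lay in intron 1 of the longest transcript, 30.1, 39.8, 52.3 and 55.7 kb from the start. The region at chr13:20120365-20121023 was covered for 166 bp in test 1 and 659 bp in test 2. The region at chr13:20142509-20143211 was covered for 589 and 535 bp, and that at chr13:20145914-20146582 for 166 and 600 bp. These are narrow peaks, and in the first and last of them test 1 contributed the least. The remaining intron 1 region, chr13:20130252-20130486, was covered for 212 and 187 bp, and the region of intron 7, chr13:20272158-20272663, for 242 and 506 bp at the start of Gm47665. A further 9 regions were held by test 2 alone.

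Because Elmo1 is a long gene, its count was set beside windows of like length. Among 217 protein-coding genes with windows of at least 600 kb, 23.5% had a test-only region and 0.922% had 5 or more, and Elmo1 ranked 2 by this count. These long windows held a median of 10 union regions, against 51 for Elmo1, so the number of regions was not matched. Of the Elmo1 regions, 9.8% were test-only, against 1.47% of all union regions. Elmo1 belongs to a pathway noticed because of such regions, so the rank and the share are descriptions and no separate evidence.

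**Figure D4:**
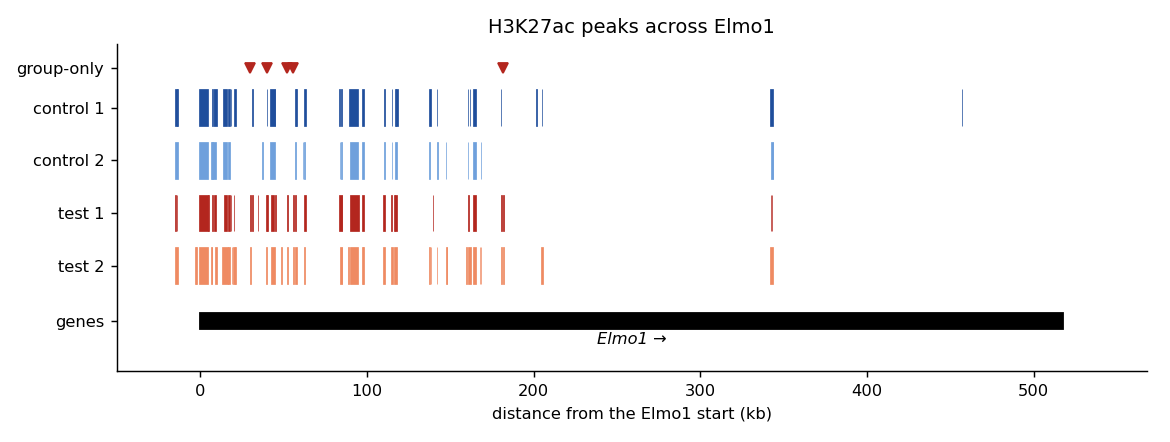
H3K27ac peaks (coloured blocks, 1 row for each tumor) along the Elmo1 window as distance from its start in kb; the black bar is the gene and red triangles mark the 5 test-only regions. Peaks crowd the first 200 kb of the gene in every tumor, and 4 of the 5 test-only regions lie in intron 1.

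Dock1, the catalytic partner of Elmo1 (chr7:134670654-135173639, plus strand), was sparsely acetylated over its whole length. Its window was covered for 0.581% and 0.579% in controls 1 and 2, and 0.57% and 1% in tests 1 and 2. Apart from test 2 the tumors hardly differed, and the difference of 0.206 points was -0.0103 points without it. The start carried a peak of 1207 bp in control 1, 1580 bp in control 2, 1225 bp in test 1 and 1270 bp in test 2. A region of intron 1 was the other present in all 4 tumors. Of 7 union regions, 4 were held by test 2 alone, the widest of 1765 bp in intron 38 (chr7:135119349-135121113). No region was control-only or test-only.

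Test-only regions were found in the windows of 4 of the 9 members (Fcgr1, Fcgr3, Fcgr4 and Elmo1), and in 12.2% of genes with a peak. Control-only regions were found for 4 members (Fcgr2b, Fcgr3, Fcgr4 and Fcer1g), and in 22.3% of genes. As the members were drawn from this contrast, nothing is read from these counts. The 3 Fcgr genes of chromosome 1 share regions, and the single test-only region of Fcgr3 is also that of Fcgr4. Leaving out a tumor loosens the definition, and the counts over all genes rose with it. Members with a test-only region numbered 6 without control 1, 4 without control 2, 6 without test 1 and 7 without test 2, beside 25%, 24.3%, 44.9% and 51.4% of all genes. Members with a control-only region numbered 8, 8, 7 and 5 in the same order, beside 56.6%, 53.4%, 47.5% and 30.1%.

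Region by region, the shares held in the haematopoietic windows and in Elmo1 differed most in test 2. Of 120 union regions in haematopoietic windows, control 1 held 85, control 2 held 80, test 1 held 73 and test 2 held 58. In Elmo1, the same tumors held 29, 26, 31 and 39 of 51, and both test counts include the 5 test-only regions, the kind of region by which the pathway was chosen. Test 2 thus held the fewest of the former and the most of the latter, with 48.3% against 76.5%. In controls 1 and 2 the shares were 70.8% and 66.7% in haematopoietic windows, near the 67.4% and 64% of all union regions. In Elmo1 they were 56.9% and 51%. The 5 test-only regions are among its 51 and lower these control shares, so nothing is read from that difference. Of all union regions test 2 held 57% against 63.5% to 67.4% in the others. In the haematopoietic windows, 10 regions were missing from test 2 alone (8.33%, against 6.38% of all regions). None (0) of the Elmo1 regions was. Regions shared by all 4 tumors were wider, with a median of 1560 bp in the haematopoietic windows against 280 bp for the rest, and 1876 bp against 315 bp in Elmo1. All union regions showed the same, with 1688 against 300 bp, and joining peaks of several tumors itself widens a shared region.

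**Figure D5:**
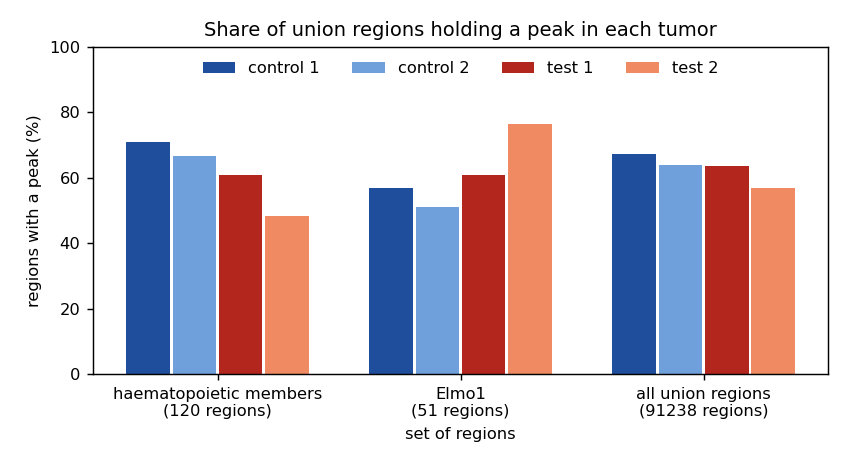
Percent of union regions that held an H3K27ac peak in each tumor (bars, from 0) for the windows of the haematopoietic members, for Elmo1 and for all union regions. Test 2 has the lowest bar for the haematopoietic members (48.3%) and for all regions (57%), and the highest for Elmo1 (76.5%).

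Markers of macrophages and of blood cells in general were mostly lower in the test tumors, as were the haematopoietic members. Of 16 macrophage markers, 14 had lower mean coverage in the test tumors (48.6% of all genes did), the exceptions being Lyz2 and Cd14. In 8 both controls lay above both test tumors (13% of all genes), among them C1qa, C1qb and C1qc, whose windows overlap. Coverage averaged over the list 10.5% and 9.56% in controls 1 and 2 and 9.69% and 7.04% in tests 1 and 2. Their promoters held peaks for 12, 10, 9 and 7 genes in the same order. All 6 markers of blood cells in general were lower in test tumors by the mean, at 6.2%, 5.9%, 5.34% and 3.06%. In 4 of the 6, both controls lay above both test tumors (66.7%, against 13% of all genes). Cd68, a lysosomal protein of macrophages, overlapped between the groups, with 24.1% and 26% in controls and 28.1% and 20.2% in test tumors. At Itgb2, an integrin chain of leukocytes, coverage was 10.8% and 11% in the controls and 9.66% and 7.2% in the test tumors. Coro1a, of the same list, overlapped between the groups, with 8.31% and 9.04% in controls and 9.74% and 2.95% in test tumors. Test 2 was lowest in both lists, and the part of cell numbers in the coverage of the members was not tested.

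Other lists went in both directions. The 12 mammary epithelial markers had means of 27.3%, 24.7%, 27.7% and 26.1%. By the mean, 8 were higher in the test tumors and 4 lower (33.3%, against 48.6% of all genes). In 2 both test tumors lay above both controls (16.7%, close to the 17.3% of all genes). Cldn3, a tight junction gene, overlapped between the groups, with 42.8% and 46.6% in controls and 41.6% and 45.6% in test tumors. Ehf, an epithelial transcription factor, was covered for 37.8% and 34.6% in controls and 39.1% and 39.2% in test tumors. All 7 endothelial markers, like most of the haematopoietic members, were lower in the test tumors by the mean, 5 of them with both controls above both test tumors (13% of all genes), and the list stood at 4.68%, 4.2%, 4.06% and 2.83%. Of 8 fibroblast markers with a peak, 5 were lower (62.5%, against 48.6% of all genes) and 3 higher by the mean. This list stood at 3.85%, 3.56%, 3.88% and 2.73%, with promoter peaks in 3, 3, 2 and 0 genes. Of the 9 T cell markers, 6 were higher in test tumors by the mean, with a median difference of 0.696 points. Both test tumors lay above both controls in 4 (44.4%, against 17.3% of all genes), and 4 windows held a test-only region (44.4%, against 12.2%). A control-only region was found in 3 windows (33.3%, against 22.3% of all genes). The 6 higher markers include Cd3d, Cd3e and Cd3g, whose windows overlap and each held a test-only region. Of all genes, 48.6% were lower by the mean. The T cell promoters held 1 peak in each control tumor and 0 in each test tumor. No promoter of the 7 B cell or 5 natural killer cell markers held a peak in any tumor (0 of each), and their median differences were -0.0604 and -0.078 points. Of 7 neutrophil markers, the 6 with a peak were all lower in the test tumors by the mean (48.6% of all genes were), 2 of them with both controls above both test tumors. Their promoters held peaks in 3, 2, 3 and 1 genes, the 6 dendritic ones in 1, 2, 2 and 0, and the 7 of mast cells and basophils in 1 gene in every tumor.

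Other genes of Fc gamma receptor signalling and engulfment were split. Of 111 listed, 110 had a peak in the window, 64 lower (58.2%, against 48.6% of all genes) and 46 higher in test tumors by the mean, with a median difference of -0.135 points. Both controls lay above both test tumors for 23 (20.9%), and both test tumors above both controls for 14 (12.7%), against 13% and 17.3% of all genes. A test-only region was found for 20 (18.2%, against 12.2% of all genes) and a control-only region for 51 (46.4%, against 22.3%), and the lengths of the windows were not matched. By role, 11 of 15 phospholipases and lipid kinases, 18 of 33 actin assembly genes and 3 of 6 Src family kinases were lower in test tumors.

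Among those higher in both controls, the largest differences were at Fcrla and Fcrlb, receptor-like genes next to Fcgr2b, whose windows hold some of the same peaks. Away from that locus, the non-muscle myosin gene Myh9 was covered for 31.7% and 39.8% in controls and 31.2% and 29% in test tumors. Inpp5d, which encodes the lipid phosphatase SHIP1 that acts downstream of Fcgr2b, was covered for 11% and 10.1% in controls and 7.97% and 5.05% in test tumors. Rac2, the Rac of blood cells and a substrate of Vav1, was covered for 6.79% and 7.09% in controls and 4.05% and 3.01% in test tumors. At Inpp5d and Rac2 the controls stood clear of the test tumors, whereas at Myh9 control 1 was close to test 1.

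Among those higher in both test tumors were Trim21, a cytosolic antibody receptor, Ptpn6, Pak1, Prkcd and Itpr3. Trim21 was covered for 1.6% and 1.67% in controls and 2.55% and 7.07% in test tumors, so its difference came mostly from test 2. Ptpn6, the phosphatase SHP-1, was covered for 22.4% and 20.8% in controls and 24.3% and 24.4% in test tumors. The kinase gene Pak1, a Rac target, was covered for 4.49% and 4.64% in controls and 5.3% and 8.21% in test tumors. At Pak1, as at Elmo1 and Dock1, test 2 was highest.

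The genes whose coverage ran most like that of a member were sought among the pathway and marker lists, leaving out genes within 1 Mb. Coverage in each of the 4 tumors was divided by the gene's mean, and absolute differences were summed. Syk was nearest to Laptm5, a lysosomal gene of blood cells (summed difference 0.147), and Fcgr2b to the complement genes C1qb and C1qc (0.288 each). Fcgr4 was nearest to Inpp5d (0.201), Fcer1g to Itgb2 (0.136) and Vav1 to Dock2 (0.0556), the Dock protein of blood cells. Second in order were Myo1f for Fcgr4 (0.225), Pik3r2 for Fcer1g (0.154), Arpc4 for Vav1 (0.0736) and C1qb for Syk (0.216). Elmo1 was nearest to Grb2 (0.0661), Dock1 to Pak1 (0.204), Fcgr3 to Klrd1 (0.12) and Fcgr1 to Pik3ca (0.014). For these members the second were the T cell gene Cd3e for Elmo1 (0.138), Lyn for Dock1 (0.212), the epithelial Cldn3 for Fcgr3 (0.166) and Dock5 for Fcgr1 (0.0608). Each ranking rests on 4 tumors and describes these lists only.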

How the data were processed

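H3K27ac ChIP-seq peak lists of 2 control and 2 test tumors were analysed, grouped by the genotypes per the labels. The authors aligned reads to mm10 with BWA, and MACS2 was run for each tumor against its own input, without pooling. The deposited files hold positions in base pairs, with no count, signal or score, after cleaning and merging of neighbouring peaks. Tool versions are not given in the sources used here. Depth is unknown, so no counting interval is given, and a more deeply sequenced tumor can have more and wider peaks. The inputs were not analysed here.

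Gene windows, promoters (1 kb either side of a start) and introns came from GENCODE M21 on GRCm38. A tumor held a union region where they shared 1 bp or more. Python 3.11.15, numpy 2.4.6, samtools 1.23.1 and matplotlib 3.10.9 were used, and the counting was tested on simulated peaks. The members, the pathway and marker lists and the motifs were chosen with earlier results of these data known. Genes outside the members were named by rule: the 5 pathway genes with the largest difference in each direction among those whose groups did not overlap, the 2 marker genes with the highest coverage per list, the 2 genes most like each member, and genes starting within 1 kb of a peak in a member's window. Not all of these are printed, and Lyz2, C1qa, Cd3d and Cd3g were named outside the rule, after their values were seen. The position of 1 control-only region is not reported here. Alternatives were a width of at least 1 kb, 50% overlap, equal peak numbers, joining within 1 kb, flanks of 10 or 100 kb, windows without the starts of other genes, Syk placed in the other class, and leaving out each tumor.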

Additional observations from a re-analysis of the deposited data

How the results depend on the processing

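Peaks without height or depth limit every value here, and no test was run, since the members were selected on these data. No paired analysis was possible because the tumor numbers only name tumors and no result comes from a test. Members with a test-only region (4) became 1 with peaks of at least 1 kb, 2 with 10 kb flanks and 2 without the starts of other genes, and ranged from 4 to 7 when each tumor was left out. Members with a control-only region (4) became 1 after joining peaks within 1 kb and 2 with 10 kb flanks, and ranged from 5 to 8 with a tumor left out. Members higher in both test tumors (1) became 2 with peaks of at least 1 kb, after joining or with 10 kb flanks, and ranged from 1 to 3 with a tumor left out. Members higher in both control tumors (4) were 3 to 5 throughout. The haematopoietic median of -2.55 points ranged from -3.26 to -0.65 with a tumor left out and was -1.8 with Syk placed in the other class; it was negative under every alternative run. The broadly expressed median of 0.612 ranged from 0.0977 to 1.13 with a tumor left out and stayed positive. Of 90 values for single members, 83 moved by less than the SD over pairings, 4 of them with a change of sign. The sign changed in 6 of the 90: with 10 kb flanks Fcgr1 (-0.9) and Fcgr3 (0.758); without control 2 Fcgr3 (0.49); without control 1 Vav1 (0.0698); without test 2 Vav1 (0.296) and Dock1 (-0.0103). A further 5 moved by more without a change of sign: with peaks of at least 1 kb Fcgr1 (0.323), Fcgr3 (-2.25), Fcgr4 (-4.83) and Syk (-1.04), and with 100 kb flanks Fcgr3 (-1.81). With each tumor left out, Fcgr3 ranged from -1.22 to 0.49, Vav1 from -1.65 to 0.296 and Dock1 from -0.0103 to 0.422 points. For results that changed, the cause was not tested.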
